A study of Homo sapiens with 8 samples.

Results

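Resistant cells that were living in indisulam were compared with parental cells that had met the drug for 18 h, to describe what separates adapted from acutely treated cells. The comparison used 4 of the 8 RNA sequencing libraries of the series, 2 labelled parental indisulam and 2 labelled resistant indisulam, taken by their titles alone. Both lines are Panc10.05, an established human pancreatic adenocarcinoma line, and the resistant line was derived from it by months of culture in rising doses of the drug. Parental cells received 2 µM indisulam, and the resistant indisulam group was kept without a break in the same dose. The remaining 4 libraries, used as the background without drug, were parental untreated cells and resistant untreated cells, which had been taken off the drug for a week. No gene was edited in any group, and the sources used here do not state whether the resistant line is 1 clone. Line and length of exposure changed together in the comparison on the drug and cannot be told apart there. In the study's terms the pair of libraries within each group are technical replicates, and the p-values below therefore reflect library-to-library spread, not culture-to-culture spread. A549, a lung cancer line, is what the culture notes in the labels name, whereas every title names Panc10.05, and the titles were followed.

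Indisulam is an aryl sulfonamide that acts as a molecular glue. It ties RBM39, an RNA-binding protein that helps define exons, to DCAF15, the substrate receptor of a CUL4 ubiquitin ligase with the adaptors DDB1 and DDA1, and the proteasome then degrades RBM39. Loss of RBM39 gives mis-spliced transcripts, with skipped exons and retained introns. Pancreatic cancers are commonly sorted into a classical form, with secretory and mucin genes, and a basal-like form, with squamous keratins and mesenchymal features, and some carry an interferon programme that is held on without an outside signal.

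Levels are given as CPM, the read count of a gene divided by the TMM-adjusted size of its library, and log2 differences are resistant minus parental from edgeR's quasi-likelihood test, with a Benjamini-Hochberg adjusted p under 0.05 as a call. CPM is not divided by transcript length, so levels are compared between libraries and not between genes. Libraries held 65266253 to 108002436 reads in genes, and on the drug 77161562 and 80482880 in parental cells against 65781780 and 93393805 in resistant cells. Log2 levels of the 2 libraries of a group correlated at 0.996 to 0.998 across genes. Keratin transcripts of ductal epithelium were abundant in every library, with KRT8 at 2445 and 2425 CPM in parental and 4839 and 4675 CPM in resistant cells on the drug. KRT18, which overlaps KRT8 on the other strand, held 48.2% of the reads of the pair. Of 22 markers of other cell types, 5 passed the filter on low counts, and their summed level stayed between 2.4 and 6.3 CPM in all 8 libraries. The leukocyte, fibroblast, lung, islet and acinar genes PTPRC, CD3E, DCN, LUM, SFTPB, NKX2-1, INS, GCG, CPA1 and CHGA had 0 reads in every library.

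Of 16661 genes tested, 11579 (69.5%) differed between the lines on the drug, 5761 (34.6%) higher and 5818 (34.9%) lower in resistant cells, with a median size of 0.45 log2 units. The even split hid an uneven spread of sizes. Past 1 log2 unit, 2073 genes (12.4%) were higher and 387 (2.32%) lower, and past 3 log2 units there were 411 against 8. The asymmetry was steeper below a mean of 10 CPM than above it. Among 4597 genes with a mean under 1 CPM, 1222 were higher and 201 lower past 1 log2 unit. Among 3253 genes at 1 to 10 CPM these counts were 609 and 89, and among the 8811 genes at 10 CPM or more 242 and 97. The share of reads outside annotated genes moved with it, at 4.51% and 4.58% in parental and 5.78% and 5.85% in resistant cells on the drug, as did the number of genes with a read, 22822 and 23094 against 24009 and 25263. Their part in the rise of weak genes was not tested, and list members under 1 CPM are to be read against that background. At any size, genes at 10 CPM or more were called higher in 2604 cases and lower in 4607, with a median of -0.10. Lists of well-expressed genes are to be read against that lean. The filter asked for about 10 reads in 2 libraries, and 955 of the genes tested would not have been kept on the parental libraries alone, so that a higher level in resistant cells was built into their selection. The 15706 others held 5155 higher and 5817 lower calls at any size. A further 553 would not have been kept on the resistant libraries alone, a selection the other way. The counts past 1 and 3 log2 units above include both sets. The 955 genes included 2 ATF4 targets and 1 member each of the NRF2, neural-type adhesion, growth factor and MAPK lists described below. Those of other lists are given with the lists.

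Off the drug the lines differed in 10021 genes (60.1%), 5047 (30.3%) higher and 4974 (29.9%) lower in resistant cells. The comparisons on and off the drug share no library. Of the 2073 genes higher past 1 log2 unit on the drug, 1306 (63.0%) were also called higher off it and 694 were not called there. Of the 387 lower past 1 log2 unit, 289 (74.7%) were also called lower off the drug. The difference between the 2 line differences, tested as an interaction, was called for 8351 genes (50.1%), 3774 (22.7%) in the direction of a more positive difference on the drug and 4577 (27.5%) in the other. When the interaction was tested against a minimum of 0.5 log2 units, 908 genes passed, and the split then lay the other way, with 746 positive and 162 negative. Genes at 10 CPM or more, which leaned lower on the drug, were called higher in 3270 cases and lower in 3041 off it (median 0.010). Their median interaction by chromosome ran from -0.16 on chromosome 13 to 0.0081 on chromosome 19. Changes between the states in lists of well-expressed genes are to be read against that shift.

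The 3 largest rises on the drug, among genes above the level set for naming, were in secreted and surface proteins. Where values are set against each other, the 2 parental libraries come first and the 2 resistant libraries second. SERPINB2 (ENSG00000197632, chr18:63871692-63903888) is the plasminogen activator inhibitor of monocytes and keratinocytes. It stood at 0.227 and 0.129 CPM in parental and 63.3 and 65.1 CPM in resistant cells (log2 difference 8.49, adjusted p = 2.9e-27). L1CAM (ENSG00000198910, chrX:153861514-153886173) is a neural cell adhesion molecule found on invasive carcinomas. It was at 0.267 and 0.271 CPM in parental and 31.5 and 31.8 CPM in resistant cells (log2 difference 6.87, adjusted p = 2.3e-25). The secreted urokinase receptor ligand SRPX2 (ENSG00000102359, chrX:100644195-100675788) was at 0.694 and 0.671 against 65.8 and 67.6 CPM (log2 difference 6.61, adjusted p = 6.0e-27). In each of these genes the groups lay far apart, and they did so off the drug too, with log2 differences of 8.38, 6.12 and 6.21. The calcium-binding alarmin S100A9 followed at 0.387 and 0.439 against 27.4 and 28.0 CPM (log2 difference 6.06), with the calcium-activated potassium channel KCNN4 (5.24), the clock transcription factor NPAS2 (4.96), MOB3B (4.82) and the tetraspanin CD81 (4.61). B3GALNT1, a globoside synthase, was 4.72 higher on the log2 scale. NMD3, which overlaps it on the opposite strand, held 92% of the reads of the pair, and reads of the 2 genes may not be told apart.

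A few strong rises were larger on the drug than off it. MT1F (ENSG00000198417, chr16:56657731-56660698), a metallothionein that binds zinc and copper, was at 0.694 and 0.568 CPM in drug-treated parental cells, 18.7 and 18.7 CPM in drug-treated resistant cells and 1.26 and 1.22 CPM in resistant cells off the drug. Its log2 difference was 4.89 on the drug and 1.28 off it, and the interaction was 3.61 (adjusted p = 4.9e-12). KRT17 (ENSG00000128422, chr17:41619442-41624842), a keratin of basal and squamous epithelium, showed the same order, with 0.333 and 0.336 CPM, 13.8 and 13.9 CPM and 2.54 and 2.73 CPM in those groups. CD24, a mucin-like surface marker of epithelial progenitors, differed by 4.39 on and 3.06 off the drug, and the small GTPase RAB15 by 4.35 and 2.83. All of these differences were called in both states, and the interaction was called for each.

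The strongest falls were shallower than the rises. GALNT18 (ENSG00000110328, chr11:11270877-11622005) is a glycosyltransferase that starts mucin-type sugar chains. It went from 12.4 and 13.0 CPM in parental to 1.69 and 1.80 CPM in resistant cells on the drug (log2 difference -2.85, adjusted p = 8.0e-20). The purine enzyme guanine deaminase, GDA (ENSG00000119125, chr9:72114595-72257193), was at 71.7 and 74.2 against 12.8 and 12.9 CPM (log2 difference -2.51, SE 0.039, adjusted p = 2.7e-24). DOCK1, a guanine exchange factor that drives RAC1 and cell migration, was at 50.7 and 52.3 CPM in parental and 13.2 and 13.0 CPM in resistant cells, a log2 difference of -1.98 against -0.85 off the drug. The secreted WNT antagonist DKK1 was at 60.035 and 59.6 CPM in parental and 17.7 and 17.8 CPM in resistant cells (-1.75), and the bone morphogenetic protein receptor BMPR1B differed by -1.80. CALB2 (ENSG00000172137, chr16:71358713-71390436), the calcium buffer calretinin, turned direction between the states. It was at 10.4 and 10.4 CPM in parental and 3.46 and 2.90 CPM in resistant cells with the drug (-1.73), and at 13.9 and 13.5 against 19.3 and 18.1 CPM off it (0.45, adjusted p = 9.7e-08). The other members of the 12 largest falls were ZNF426 (-2.39), CRACD (-2.20), INSYN2B (-2.00), the long noncoding MIR31HG (-1.91), GPR35 (-2.29) and KCNAB2 (-2.15). CAPN10, which overlaps GPR35 on the same strand, held 77% of the reads of that pair, and NPHP4, which overlaps KCNAB2, held 46%.

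**Figure D1:**
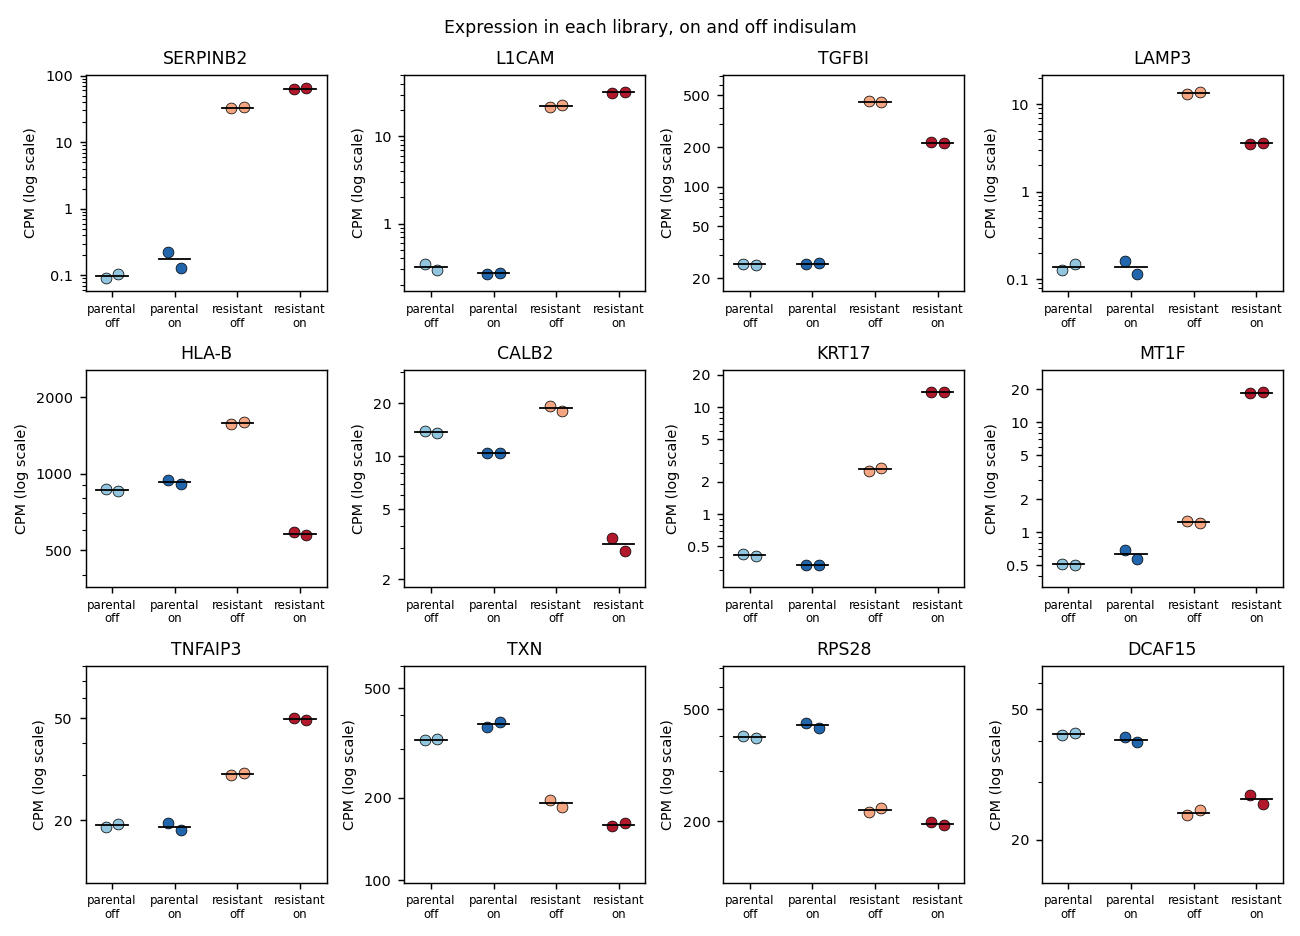
CPM (log scale) of 12 genes in each of the 8 libraries, with points for libraries and a bar at each group's mean, for parental and resistant cells off and on indisulam. SERPINB2 and L1CAM separate the lines in both states, MT1F and KRT17 are highest in resistant cells on the drug, LAMP3 and HLA-B are highest in resistant cells off it, and CALB2 is lowest in resistant cells on it.

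Interferon-stimulated genes, which cells switch on when their interferon receptors are engaged, were the list with the highest median. Of 39 members tested, 38 were higher and 0 lower in resistant cells on the drug, with a median log2 difference of 2.22 against 0.0032 over all genes. Off the drug all 39 were higher, with a median of 3.34. Summed over the list, parental cells held 451 and 441 CPM off and 349 and 332 CPM on the drug, and resistant cells held 3336 and 3333 CPM off and 1023 and 1020.5 CPM on it. The summed level was thus above that of parental cells in both states, and lower in resistant cells on the drug than in those off it. The interaction was called negative for 31 members and positive for 1. Of the 39, 6 would not have passed the filter on the parental libraries alone, and the other 33, of which 32 were higher, had a median of 2.00 on the drug. In bulk RNA, fewer cells of a kind and less RNA per cell cannot be told apart.

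EPSTI1 had 2 reads in each parental library on the drug against 123 and 197 in resistant cells, a fitted log2 difference of 6.14 on and 9.76 off it. Scaled by library size, the ratio of its summed reads on the drug was 74.5 (95% exact counting interval 28.8 to 275). LAMP3 (ENSG00000078081, chr3:183122215-183163839) is a lysosomal membrane protein of mature dendritic cells that interferon also induces. It was at 0.160 and 0.116 CPM in parental and 3.54 and 3.65 CPM in resistant cells on the drug (log2 difference 4.69, adjusted p = 6.6e-17). Off the drug LAMP3 was at 0.128 and 0.150 against 13.1 and 13.7 CPM (6.58). IFIT5, an RNA-binding member of the list, was the 1 member not called on the drug (-0.057), named here for that reason, and it was called higher off the drug (1.58).

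The promoters of these genes were read for the interferon-stimulated response element, a promoter site through which interferon acts, as GAAANNGAAA on either strand. Promoters were windows of GRCh38.p14, 250 bases before to 50 after each RefSeq start, and 30 of the list's genes matched. The element stood in 19 of them (63.3%) against 996 of all 27305 promoters (3.65%) and 313 of the 11149 matched promoters of tested genes (2.81%). Among genes higher past 1 log2 unit on the drug it stood in 50 of 1213 (4.12%), and among those lower past 1 in 6 of 192 (3.12%). The windows below, chosen after their values were seen, show the element in capitals for members whose line difference was about equal on and off the drug and for members whose difference was much smaller on it. Where the capitals read TTTC they are the element on the other strand. The first 3 belong to the first kind, with log2 differences on and off the drug of 2.22 and 2.26 (DDX60, chr4:168318786-168318815, minus strand), 2.45 and 2.60 (IFI44, chr1:78649761-78649790, plus strand) and 2.23 and 2.48 (IFIT3, chr10:89327865-89327894, plus strand).
DDX60: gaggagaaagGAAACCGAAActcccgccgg
IFI44: gcacactgagTTTCAGTTTCctttctctga
IFIT3: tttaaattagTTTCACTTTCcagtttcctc
The other 3 belong to the second kind, with differences of 2.28 and 6.79 (IFI6, chr1:27672266-27672295, minus strand), 2.44 and 6.21 (IFI44L, chr1:78620365-78620394, plus strand) and 6.14 and 9.76 (EPSTI1, chr13:42992272-42992301, minus strand).
IFI6: gcagagtgcaGAAATAGAAActccgacagg
IFI44L: tcctagtgagGAAAAAGAAAgttagtggca
EPSTI1: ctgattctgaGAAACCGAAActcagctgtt
DDX60 and EPSTI1 carry the same core letters and differ in how their line difference changed with the drug, so these letters alone did not sort the 2 kinds.

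Genes of antigen presentation by MHC class I, many of which interferon also induces, were split on the drug. Of 15 members tested, 7 were higher and 7 lower on the drug (median 0.035), against 14 higher and 1 lower off it (median 0.72), and the interaction was called negative for 12. HLA-B (ENSG00000234745, chr6:31353872-31367067), a heavy chain that displays peptides to T cells, was at 946 and 909 CPM in parental and 589 and 573 CPM in resistant cells on the drug (log2 difference -0.68, SE 0.029, adjusted p = 1.0e-15). Off the drug the order was the other way, at 868 and 855 against 1575 and 1602 CPM (0.88). HLA-C (-0.59 on, 0.72 off) turned likewise, and so did the shared light chain B2M (-0.55 and 0.63), a member looked at after its values were seen. HLA genes vary between genomes and share sequence, so their counts carry that uncertainty. By contrast the aminopeptidase ERAP2 (1.27) and the immunoproteasome subunit PSMB9 (1.61) were higher on the drug as well as off it. TAP1, which overlaps PSMB9 on the other strand, held 83% of the reads of that pair.

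Of 24 listed cytokines and chemokines 19 were tested, and 7 of these, IL6 among them, would not have passed the filter on the parental libraries alone. The other 12 were all higher in resistant cells on the drug, with a median of 1.43. Over the 19 tested, 19 were higher on the drug, with a median of 1.52, and off it 17 were higher and 2 lower (median 1.63). The T-cell chemokine CCL5 was at 0.0800 and 0.0904 CPM in parental and 1.99 and 1.77 CPM in resistant cells (log2 difference 4.43). IL6, the cytokine that signals through STAT3, was at 0.0934 and 0.0775 against 1.23 and 1.31 CPM (3.88), and LIF of the same family, the member with the highest level, was at 57.3 and 54.6 against 126 and 127 CPM (1.18). Of the 13 tested NF-kB regulators and targets, 7 were higher and 2 lower (median 0.12). TNFAIP3, the feedback inhibitor A20, was at 19.5 and 18.3 CPM in parental and 50.2 and 49.2 CPM in resistant cells with the drug (1.40) and differed by 0.67 off it, and TRAF1 differed by 1.19. The subunit NFKB1 (-0.29) was lower, and NFKB2 (0.12) was higher, a direction that turned to -0.10 with a correction for GC content and length.

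Genes of invasion and cell attachment formed a second block that was higher in resistant cells. In the urokinase system, which turns plasminogen into plasmin at the cell surface, 9 were higher and 0 lower of 10 genes tested (median 0.64). Without the 2 that passed the filter only with the resistant libraries, 7 of 8 were higher and 0 lower (median 0.45). Besides SERPINB2 and SRPX2, the protease inhibitor SERPINE2 had 0 reads in both parental libraries and 57 and 85 in resistant cells, at least 22.0-fold higher when each parental library is set at a floor of 3 reads. The AP-1 site TGANTCA, on either strand, stood in 5 of the 8 promoters of the list that matched (62.5%). It stood in 7.76% of all 27305 promoters and in 4.87% of the 11149 of tested genes. Among the tested genes higher and lower past 1 log2 unit the shares were 6.76% and 5.73%. The windows with the site in capitals are shown, again chosen after their values were seen, for the leading members and for the urokinase receptor PLAUR (log2 difference 0.46), at chr18:63887591-63887620 (SERPINB2, plus strand), chrX:100644078-100644107 (SRPX2, plus strand) and chr19:43670338-43670367 (PLAUR, minus strand).
SERPINB2: tgagtaaaatgtTGAATCActcaaaggaca
SRPX2: cttatgtcatgcTGAGTCAtaaaaagaagt
PLAUR: atcacaactccaTGAGTCAgggccgagcca

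Of 17 tested mesenchymal genes, 13 were higher and 2 lower, with a median of 1.44 on and 0.68 off the drug. TGFBI (ENSG00000120708, chr5:136028988-136063818), a matrix protein induced by TGF-beta, was at 25.5 and 25.9 CPM in parental and 218 and 215 CPM in resistant cells (log2 difference 3.07, SE 0.032, adjusted p = 2.9e-27), less than the difference of 4.12 off the drug. Without the 3 members that passed the filter only with the resistant libraries, 11 of 14 were higher and 2 lower (median 0.88 on the drug). The gelatinase MMP9 differed by 5.62 and the collagen cross-linking enzyme LOXL2 by 4.43, while the receptor TGFBR1 (-0.39) was lower. ENTPD4, which overlaps LOXL2 on the same strand, held 97.5% of the reads of that pair. The smooth muscle actin ACTA2 was weak, at 0.360 and 0.232 against 0.148 and 0.156 CPM, with a larger fall (-0.94). STAMBPL1, which overlaps ACTA2 on the opposite strand, held 99.4% of the reads of that pair. The call of ACTA2 was lost with DESeq2 (-0.95), without parental indisulam replicate 1 (-0.58) and without either resistant indisulam library (-0.91 and -0.98). Of 25 tested collagens, laminins and other matrix genes, 19 were higher and 4 lower (median 0.88). Without the 3 that passed the filter only with the resistant libraries, 17 of 22 were higher and 4 lower (median 0.82). THBS1, the antiangiogenic thrombospondin that activates TGF-beta, was at 124 and 125 against 1168 and 1148 CPM (3.22 on, 4.06 off the drug), and tenascin TNC had 2 reads in each parental library against 601 and 868 in resistant cells, a ratio of 342 (95% exact counting interval 133 to 1258). The collagen COL16A1 differed by 3.85, while COL5A2 (-0.86) was lower.

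All but 1 of the 17 integrins tested, the receptors of those matrix proteins, were higher on the drug, with none called lower (median 0.56). Without the 2 that passed the filter only with the resistant libraries, 14 of 15 were higher (median 0.52). ITGB6, which forms the epithelial receptor that activates latent TGF-beta, differed by 3.29, the laminin receptor ITGA3 was at 369.7 and 365 against 482 and 464 CPM (0.36), and ITGB3 had 0 reads in both parental libraries and 15 and 20 in resistant cells, at least 5.47-fold higher at the floor of 3 reads. Among the 7 neural-type adhesion molecules tested, 5 were higher and 1 lower, with CNTN1 at 3.90 beside L1CAM and ALCAM at -0.42. Of 21 tested growth factor receptors and ligands, 16 were higher and 4 lower (median 0.53). FGFR3 (1.59) and the platelet-derived growth factor PDGFB (1.55) led the rises, and the insulin receptor INSR (-0.60) and its relative IGF1R (-0.38) were the largest falls.

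Downstream of those receptors the lists were mixed. Of 14 tested MAPK output genes, 4 were higher and 8 lower (median -0.10), with EGR1 (1.13) higher, EPHA4, the largest rise, at 0 and 1 read in parental against 8 and 19 in resistant cells (ratio 25.2, 95% interval 4.15 to 1030), and the feedback inhibitor SPRY4 (-0.27), ETV5 (-0.33) and FOSL1 (-0.27) lower. Of 17 tested YAP-TEAD genes, the output of the Hippo pathway, 7 were higher and 6 lower (median 0.0032), against 12 higher and 3 lower off the drug, with AMOTL1 (0.95) and NUAK2 (1.64) higher and CRIM1 (-0.68) and ANKRD1 (-0.35) lower. The TEAD letters GGAATG stood in 5 of 13 matched promoters of that list (38.5%), in 14% of all promoters and in 11.1% of those of tested genes.

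Epithelial genes were mostly higher as well. Of 10 tested ductal identity genes, 8 were higher and 1 lower (median 0.87 on, 0.71 off the drug). The ductal keratin KRT7 was at 799 and 794 CPM in parental and 1642 and 1582 CPM in resistant cells (1.02) and the mucin MUC1 at 4.05 and 3.95 against 19.2 and 17.6 CPM (2.20). Of 22 tested epithelial junction genes, 12 were higher and 4 lower (median 0.24). The tight junction protein CLDN1 (3.66 on, 2.33 off) and the scaffold CGN (1.08 on, 0.25 off) led the rises. MARVELD3 (-0.46) and OVOL1 (-0.17) were lower, and PHLPP2, which overlaps MARVELD3, held 63.1% of the reads of that pair. Of 7 tested mucins, 4 were higher and 1 lower (median 0.47). These counts became 4 higher and 0 lower with library totals as the scale, and 3 higher and 1 lower with a correction for GC content and length. Without the 1 that passed the filter only with the resistant libraries, 3 of 6 were higher and 1 lower (median 0.33). MUC16 had 0 reads in both parental libraries and 9 and 12 in resistant cells, at least 3.28-fold higher at the same floor.

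Of 19 tested markers of the basal-like subtype, 14 were higher and 2 lower (median 0.86 on, 0.63 off). Without the 3 that passed the filter only with the resistant libraries, 11 of 16 were higher and 2 lower on the drug (median 0.75). VGLL1, a TEAD cofactor, was at 2.95 and 2.39 CPM in parental and 48.5 and 45.8 CPM in resistant cells (4.14), beside KRT17, while FGFBP1 (-0.72) and the long noncoding UCA1 (-0.89) were lower. Classical markers passed the filter for only 4 of 26 listed genes, all called higher, with a median of 1.51 on the drug and -0.36 off it. Of these 4, 2 would not have passed on the parental libraries alone, and the other 2 had a median of 1.03 on the drug. AGR2, a secretory disulfide isomerase, was at 0.0534 and 0.116 CPM in parental and 0.193 and 0.302 CPM in resistant cells (1.57), the gut myosin MYO1A at 0.0534 and 0.0129 against 0.178 and 0.135 CPM (2.17), and the endoderm factor GATA6 at 4.29 and 3.68 against 6.14 and 6.04 CPM (0.61). The call of AGR2 was lost without parental indisulam replicate 1 (1.15) or resistant indisulam replicate 2 (1.17), and that of MYO1A without parental indisulam replicate 2 (1.52) or resistant indisulam replicate 1 (2.00). Both calls were also lost with DESeq2 (1.55 and 2.24). Markers of other cell types that were tested showed a like pattern at low levels, 4 higher and 0 lower of 5. COL1A1 was at 1.44 and 1.45 against 3.96 and 3.89 CPM and CD14 at 0.133 and 0.0775 against 0.371 and 0.291 CPM. NAPSA was at 0.0267 and 0.0258 against 0.193 and 0.198 CPM. NR1H2, which overlaps NAPSA, held 99.7% of the reads of the pair. AGR2, MYO1A, CD14 and NAPSA lie in the class under 1 CPM, in which rises past 1 log2 unit outnumbered falls 1222 to 201.

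**Figure D2:**
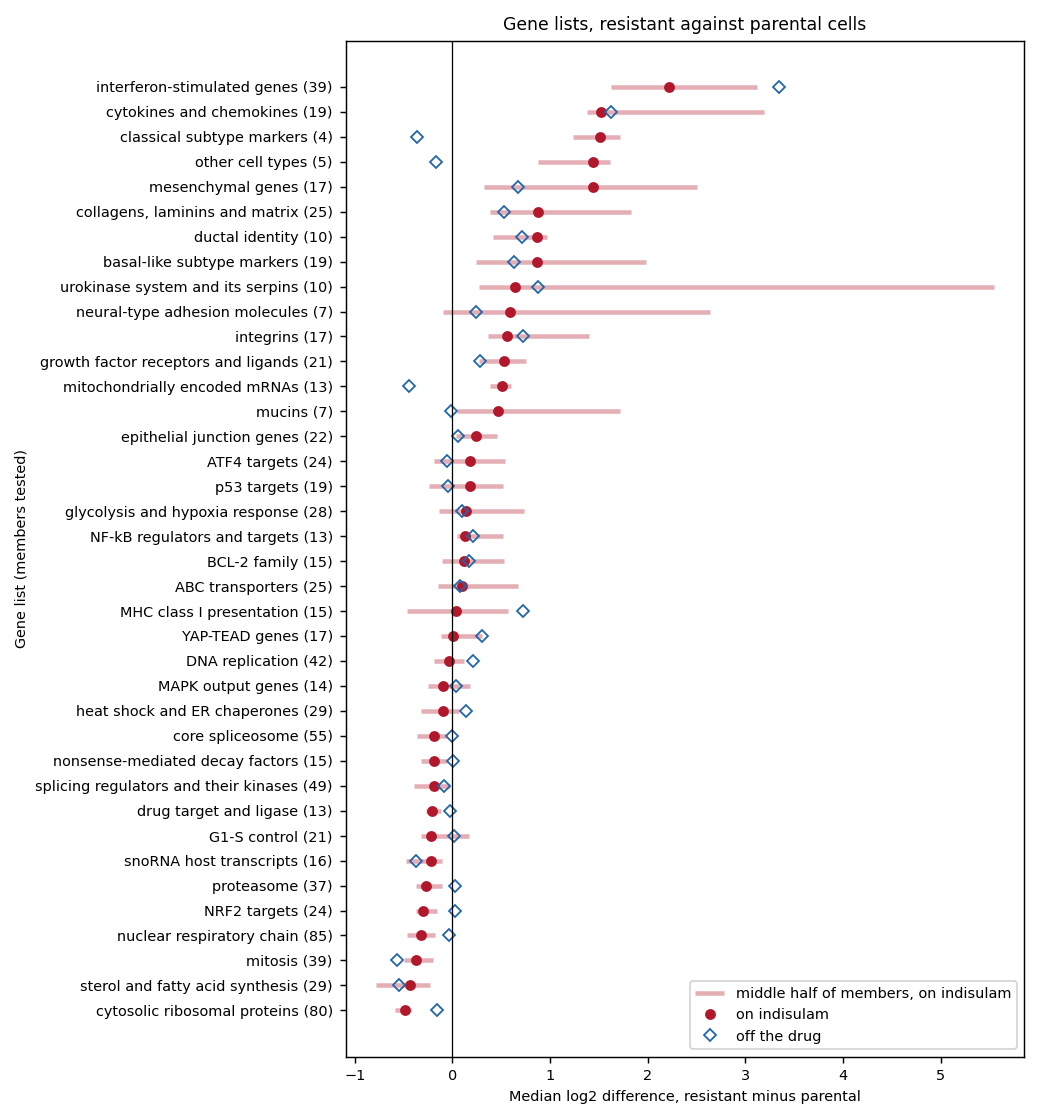
Median log2 difference, resistant minus parental, of each of 38 gene lists on indisulam (filled circles, with a bar over the middle 50% of members) and off the drug (open diamonds), with the number of members tested in brackets. Interferon-stimulated genes lie highest in both states at 2.22 and 3.34, and cytosolic ribosomal proteins lie lowest on the drug at -0.49.

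Cytosolic ribosomal proteins were mostly lower in resistant cells. Of 80 tested cytosolic ribosomal proteins, 3 were higher and 77 lower in resistant cells on the drug (median -0.49), against 1 higher and 60 lower off it (median -0.16), and the interaction was called negative for 74. RPS28, of the small subunit, was at 446 and 429 CPM in parental and 198 and 193 CPM in resistant cells on the drug (log2 difference -1.16, SE 0.030, adjusted p = 4.5e-20), and RPL12, of the large subunit, differed by -0.9998. RPL36A (1.18) was higher, and GLA, which overlaps it, held 84% of the reads of the pair. Reads of ribosomal protein genes can be split with their many pseudogenes. Of 16 tested hosts of small nucleolar RNAs, which guide the modification of ribosomal RNA, 1 was higher and 12 lower (median -0.22 on, -0.37 off). SNHG5 (-0.64) and SNHG6 (-0.61) were the largest falls and SNHG12 (0.49) the 1 rise. TRNAU1AP, which overlaps SNHG12, held 39.9% of the reads of that pair.

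The respiratory chain split by genome. Of 85 nuclear genes of the chain, 4 were higher and 66 lower (median -0.32 on, -0.032 off the drug), with the complex I subunit NDUFA8 at -1.11 and the catalytic ATP synthase subunit ATP5F1B at 919 and 952 against 797 and 798 CPM (-0.23). Of 13 mitochondrially encoded transcripts, 12 were higher and 0 lower on the drug (median 0.50) and 0 higher and 9 lower off it (median -0.44), and the interaction was called positive for all 13. Summed over the list, parental cells held 37168 and 38631 CPM off and 23972 and 20598 CPM on the drug, and resistant cells 27142 and 31387 CPM off and 34024 and 30855 CPM on it. The parental libraries on the drug were the lowest of the 8, and they did not overlap with the resistant libraries on it.

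**Figure D3:**
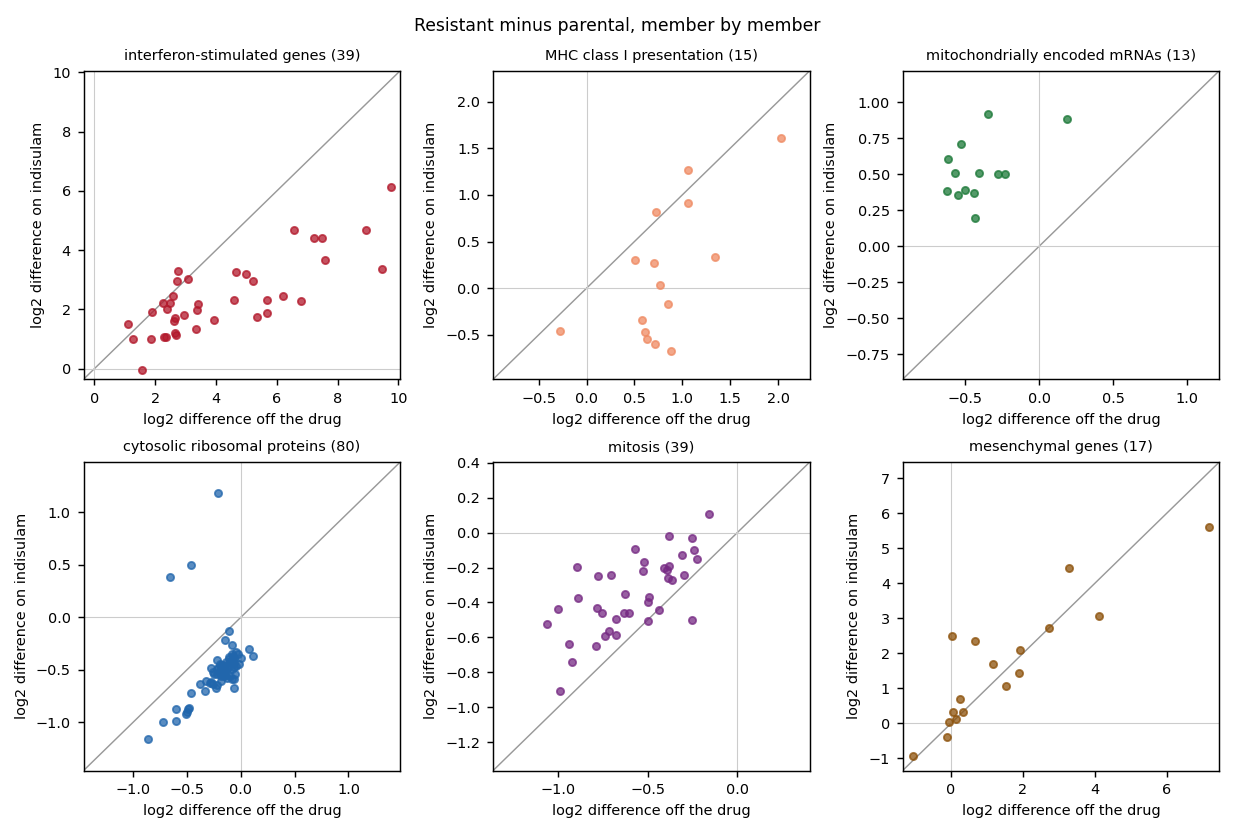
Log2 difference, resistant minus parental, of each member of 6 gene lists on indisulam (vertical axis) against off the drug (horizontal axis), with the diagonal marking equal differences. Interferon members lie mostly below the diagonal, mitochondrially encoded transcripts lie above it, and ribosomal proteins lie mostly below it.

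Protein turnover and stress genes were mostly lower or mixed. Of 37 tested genes of the proteasome, which carries out the degradation that indisulam starts, 3 were higher and 29 lower (median -0.27 on, 0.022 off), and the interaction was called negative for 33. PSMB7 (-0.77) was the largest fall, and the activator subunit PSME1 (0.31), which interferon induces, was the largest rise. Of 24 tested NRF2 targets, the antioxidant programme, 3 were higher and 17 lower (median -0.31), against 10 higher and 9 lower off the drug (median 0.023). Thioredoxin, TXN (ENSG00000136810, chr9:110243810-110256507), was at 362 and 378 CPM in parental and 157 and 162 CPM in resistant cells (log2 difference -1.21, SE 0.031, adjusted p = 5.8e-20), UGDH differed by -0.72, and the conjugate exporter ABCC3 was higher (0.87). The antioxidant response element TGACNNNGC, whose first letters can overlap an AP-1 site, stood in 5 of 17 matched promoters of that list (29.4%). Its share was 13.6% of all promoters and 15.5% of those of tested genes. Of 29 tested heat shock and ER chaperones, 7 were higher and 15 lower (median -0.10). The small chaperone HSPB1 was higher (1.15) and DNAJB1 lower (-0.52), and TECR, which overlaps DNAJB1, held 28.1% of the reads of that pair. Of 24 tested ATF4 targets of the amino acid response, 12 were higher and 8 lower (median 0.18). The serine pathway enzyme PHGDH, with 0 and 1 read in parental against 35 and 32 in resistant cells (ratio 62.4, 95% interval 10.8 to 2502), and the hormone STC2 (log2 difference 2.57) were higher, while PSAT1 (-0.59) and PSPH (-0.95), the next enzymes of that pathway, were lower. The ATF4 letters TGATGNAAT stood in 0 of 21 matched promoters of that list, in 1.02% of all promoters and in 0.457% of those of tested genes.

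Of 29 tested genes of sterol and fatty acid synthesis, 3 were higher and 24 lower on the drug (median -0.43) and 0 higher and 27 lower off it (median -0.54). The cholesterol enzymes MSMO1 (311 and 301 against 132 and 143 CPM, -1.15) and DHCR7 (-1.06) were the largest falls. The desaturase SCD was higher on the drug (0.14) and lower off it (-0.52). The sterol letters TCACNCCAC stood in 1 of 21 matched promoters (4.76%), in 1.15% of all promoters and in 1.12% of those of tested genes. Of 28 tested glycolysis and hypoxia genes, 17 were higher and 8 lower (median 0.14). The neuronal enolase ENO2 differed by 1.78 and EGLN3 by 1.37, and PFKM (-0.42) and PGAM1 (-0.35) were lower. SPTSSA, which overlaps EGLN3, held 96% of the reads of that pair. SENP1, which overlaps PFKM, held 34.7% of the reads of that pair. Of 25 tested ABC transporters, some of which pump drugs out of cells, 12 were higher and 8 lower (median 0.10). ABCC9 (3.31), a potassium channel regulator, and ABCA2 (0.92) were the largest rises, and ABCA5 (-0.39) was lower. The largest fall, ABCA10 (-2.04), rested on 10 and 6 reads in parental against 1 and 3 in resistant cells. ABCA5, which overlaps ABCA10 on the same strand, held 98.7% of the reads of that pair. ABCA10 was not called with DESeq2 (-2.13) or without parental indisulam replicate 1 (-1.59) or resistant indisulam replicate 1 (-1.70).

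Mitosis genes were mostly lower, and the replication and G1-S lists held calls in both directions. Of 39 tested mitosis genes, 1 was higher and 36 lower on the drug (median -0.37) and 0 higher and 39 lower off it (median -0.57), and the interaction was called positive for 28. The proliferation antigen MKI67 was at 1047 and 1269 CPM in parental and 672 and 711 CPM in resistant cells with the drug (-0.74) and at 837 and 835 against 431 and 449 CPM off it (-0.93). CKAP2, a spindle protein, differed by -0.91 and the kinase AURKB by 0.10, the 1 member called higher, a call that was lost without resistant indisulam replicate 1 (0.08) and with the GC and length correction (0.024). Of 42 tested DNA replication genes, 12 were higher and 19 lower on the drug (median -0.040), a median whose sign turned with other scalings, and 32 higher and 5 lower off it (median 0.21). POLE2 (0.78) and GINS1 (0.49) were the largest rises, and RPA3 (-0.77) and RFC1 (-0.55) the largest falls. Of 21 tested G1-S control genes, 7 were higher and 11 lower (median -0.21). Cyclin CCNE1 (1.51) and the CDK inhibitor CDKN1A (1.21) were both higher, while the CDK4 and CDK6 inhibitors CDKN2C (-1.02) and CDKN2A (-0.65) were lower.

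Death genes gave no shared direction. Of 15 tested BCL-2 family members, 8 were higher and 4 lower (median 0.12). The BH3-only killers BMF (2.56 and 2.14 against 6.20 and 6.56 CPM, 1.44), HRK (1.34) and PMAIP1 (29.3 and 27.6 against 60.3 and 63.1 CPM, 1.12) were higher, and the effector BAX (-0.41) and the survival protein BCL2L1 (-0.30) were lower. Of 19 tested targets of p53, 9 were higher and 7 lower (median 0.18). Without 1 member that passed the filter only with the resistant libraries, 8 of 18 were higher and 7 lower (median 0.057). PHLDA3 (5.94) and TP53I3 (1.61) were higher and FAS (-0.79) and CCNG1 (-0.66) lower. STAMBPL1, which overlaps FAS, held 87% of the reads of that pair. With a correction for GC content and length the medians of the BCL-2, p53, NF-kB and MHC class I lists turned below 0, to -0.014, -0.0053, -0.025 and -0.062. The calls then were 5 higher and 7 lower for the BCL-2 list and 6 of each for NF-kB.

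Transcripts of the drug's own target and ligase were mostly lower. Of 13 members, 0 were higher and 11 lower on the drug (median -0.20), against 3 higher and 4 lower off it (median -0.023). With library totals as the scale 1 was higher and 9 lower on the drug (median -0.12). The GC and length correction gave 1 and 9 (median -0.10). All genes at 10 CPM or more leaned the same way on the drug, with 2604 higher and 4607 lower (median -0.10). Off it they too were near balance, with 3270 higher and 3041 lower (median 0.010). RBM39 (ENSG00000131051, chr20:35701347-35742312) was at 716 and 731 CPM in parental and 577 and 591 CPM in resistant cells with the drug (log2 difference -0.31, SE 0.028, adjusted p = 9.9e-10), and at 332 and 337 against 299 and 311 CPM off it. In both lines the libraries on the drug lay above those off it. RBM39 protein was not analysed here. DCAF15 (ENSG00000132017, chr19:13952509-13961449) was at 41.1 and 39.6 CPM in parental and 27.4 and 25.8 CPM in resistant cells (log2 difference -0.60, SE 0.040, adjusted p = 2.4e-12), and at 41.6 and 42.4 against 23.7 and 24.6 CPM off the drug (-0.80). The cullin exchange factor CAND1 differed by -0.22.

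Of 55 tested core spliceosome genes, 5 were higher and 39 lower on the drug (median -0.18), against 19 higher and 12 lower off it, and the interaction was called negative for 42. PRPF4 (-0.998), of the tri-snRNP, was the largest fall, followed by LSM7 (-0.62), and the helicase SNRNP200 was at 506 and 536 against 608 and 589.8 CPM (0.20). Of 49 tested splicing regulators and their kinases, 5 were higher and 33 lower (median -0.19), counts that became 12 higher and 27 lower with library totals as the scale. The SR protein SRSF5 (0.47) and the SR protein kinase CLK2 (0.52) were higher, and HNRNPC (-0.78) and HNRNPH2 (-0.64) were lower. HCN3, which overlaps CLK2, held 31.8% of the reads of that pair. The SR protein kinase SRPK1 was not called (-0.020, SE 0.028, adjusted p = 0.52). Of 15 tested factors of nonsense-mediated decay, which clears many mis-spliced transcripts, 1 was higher and 10 lower (median -0.19). UPF3B (-0.49) and SMG8 (-0.41) were the largest falls and SMG9 (0.22) the 1 rise. The lists of this paragraph are to be read against all genes at 10 CPM or more, with a median of -0.10 on the drug and 0.010 off it. Those genes were 2604 higher and 4607 lower on the drug, and 3270 higher and 3041 lower off it.

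Falls in well-expressed genes were gathered on a few chromosomes. Among 8811 genes with a mean of at least 10 CPM, whose overall median on the drug was -0.10, chromosome 9 held 374, and 327 of these (87.4%) were lower in resistant cells on the drug, with a median of -0.52. Of the 97 well-expressed genes lower past 1 log2 unit, 47 (48.5%) lay on chromosome 9, which held 4.24% of well-expressed genes. Medians on the drug were -0.34 on chromosome 7, -0.34 on chromosome 10, -0.29 on chromosome 4 and -0.17 on chromosome 19, and chromosome 20 stood at 0.095. The other chromosomes lay between -0.16 and 0.011. Off the drug, in libraries that share none with those on it, the same chromosomes stood apart, at -0.43, -0.19, -0.24, -0.13, -0.16 and 0.21 for chromosomes 9, 7, 10, 4, 19 and 20 in that order.

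**Figure D4:**
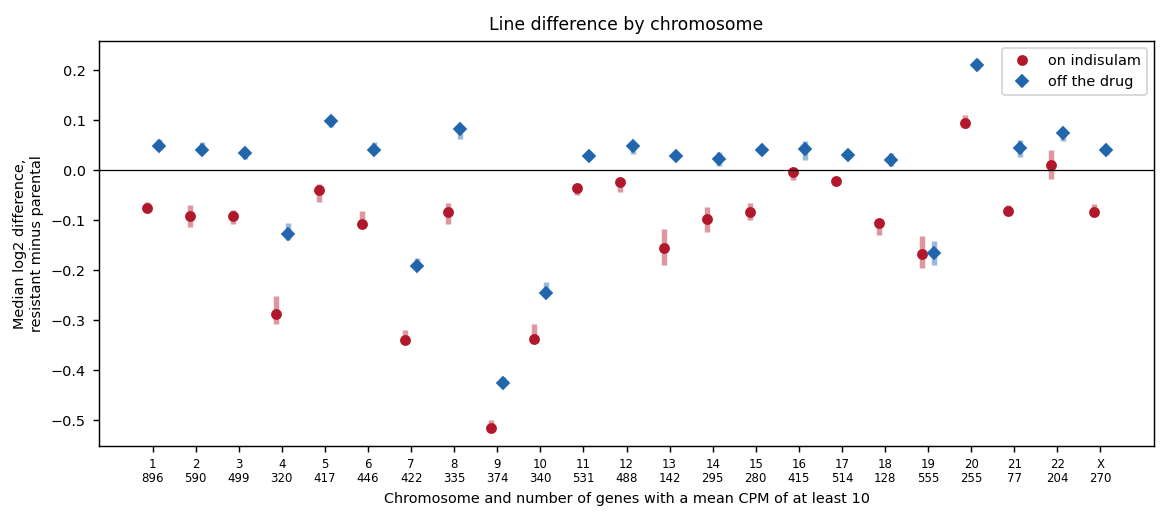
Median log2 difference, resistant minus parental, over genes with a mean of at least 10 CPM on each chromosome, on indisulam (circles) and off the drug (diamonds), with bars over the range of the medians of single library pairs and the number of genes under each chromosome. Chromosome 9 lies lowest in both states at -0.52 and -0.43, and chromosome 20 highest at 0.095 and 0.21.

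In finer steps of 10000000 bases, 271 regions held at least 10 such genes. A region was called low where its median off the drug was under -0.25, a limit set after the data of both states were seen, and its medians were computed from the libraries off the drug alone. The 28 low regions lay on chromosomes 4, 7, 9, 10 and 19 and held 1047 genes (11.9%), of which 879 were lower and 90 higher on the drug, with a median of -0.47. Elsewhere 3728 were lower and 2514 higher, with a median of -0.071. Chromosome 9 was low in all 10 of its regions, most in chr9:90000001-120000000, with medians on the drug of -0.91, -0.88 and -0.86. Chromosome 19 was low only in chr19:1-20000000, at -0.49 and -0.42, and was at 0.12 in chr19:40000001-50000000. The low regions held 69 of the 97 well-expressed genes that were lower past 1 log2 unit. DNA was not analysed here, and no cause of these blocks was tested.

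The blocks touch many results above. Of the 12 largest falls 5 lie in low regions, GDA and MIR31HG on chromosome 9, ZNF426 on 19, DOCK1 on 10 and CRACD on 4. Among list members named above, TXN, PRPF4, NDUFA8, RPL12, PSMB7, PSAT1, CDKN2A and TGFBR1 lie in those of chromosome 9, DCAF15, DDA1 (-0.49 on, -0.52 off), RPS28, LSM7, DNAJB1, INSR and UCA1 in those of chromosome 19, MKI67, PGAM1 and ANKRD1 in those of chromosome 10, and UGDH, RFC1 and FGFBP1 in those of chromosome 4. Genes higher in resistant cells lie there too, among them MOB3B, TNC, TRAF1 and ABCA2 on chromosome 9, MUC16 on 19 and FGFR3 on 4. Without DCAF15 and DDA1, the drug target and ligase list had a median of -0.16 over 11 members, 9 of them lower. The 10 ribosomal proteins of low regions had a median of -0.88, and the 70 others had -0.48, with 67 of these lower. Nuclear respiratory genes had -0.60 inside (14 genes) and -0.29 outside (71 genes), NRF2 targets -0.70 and -0.26, and mitosis genes -0.46 and -0.35. These lists were lower outside the low regions as well. The G1-S list was the exception, with -0.40 for its 4 members inside and 0.019 for the 17 outside.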

How the data were processed

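Polyadenylated RNA of 8 Panc10.05 libraries was sequenced in paired ends after stranded library preparation. The authors trimmed reads with SeqPurge, and their processing notes name HISAT2 (2.2.1), Picard, HTSeq and GRCh38. The annotation release and strand setting of the counting are not given in the sources used here. The deposited values are raw read counts per gene, 1 file a library, for 60675 genes, without normalization. A further 9 lines that name no gene were kept out of all totals, and reads outside genes made up 4.43% to 5.94% of reads that could be assigned.

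Gene symbols and coordinates were taken from GENCODE 44 by gene ID (60419 matched), and promoters from RefSeq. Counts were filtered with filterByExpr, scaled by TMM and fitted with edgeR 4.0.16 in R 4.3.3 (robust quasi-likelihood, 4 group means, 4 residual degrees of freedom, all 8 libraries in 1 model). Contrasts were resistant minus parental on the drug, the same off it, and their difference, with Benjamini-Hochberg adjustment over 16661 genes. SE is the log2 difference divided by the square root of F, so it follows from the test. For large differences with few reads in 1 group it can fall below counting error, and it is then not given. The code was tested on simulated counts first. Lists of 1067 distinct genes (928 tested) were described by counts and medians with no set test. Named genes were the 12 largest rises and falls among called, non-overlapping genes whose log2(CPM + 0.5) averaged 2 or more on the drug, the 2 largest rises and falls and the most abundant member of each list, and 8 genes tied to the drug and to cell death. Members, lists and named genes were chosen with earlier results of these data known. A few genes that the naming rule takes are not reported here.

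Libraries of a group differed by 2.07 to 6.33 per degree of freedom in a chi-square test over genes, so none was a copy of another. The replicate numbers did not pair libraries across groups, with correlations of deviations from -0.058 to 0.027. DESeq2 (1.42.0), other scalings, filters, a GC and length correction and leaving out each library served as alternatives. Depth gives counting error only, and a count of 0 allows up to 3 reads.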

Additional observations from a re-analysis of the deposited data

Results flagged for a closer look

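For 28 of the 181 named genes reported here the line difference on the drug differed from that off it by more than 0.5 log2 units in edgeR's test against that minimum, with an adjusted p under 0.05. They are given here as interactions, the difference on the drug minus the difference off it, in log2 units. Among interferon and antigen presentation genes the interactions were negative, at -3.63 for EPSTI1, -1.88 for LAMP3, -1.56 for HLA-B and -1.31 for HLA-C. The others with a negative interaction were CALB2 (-2.17), NPAS2 (-1.15), DOCK1 (-1.13), TGFBI (-1.05), KCNAB2 (-0.91), GALNT18 (-0.86) and THBS1 (-0.85).

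Positive interactions included keratin, junction and surface genes, with KRT17 at 2.69, RAB15 at 1.52, CD24 at 1.33, CLDN1 at 1.33 and CGN at 0.83. Metabolic, signalling and RNA genes with a positive interaction were MT1F (3.61), ABCC9 (1.77), ENO2 (1.06), SNHG12 (0.81), TNFAIP3 (0.73), SRSF5 (0.67) and SCD (0.66). The ribosomal protein RPL36A was among them at 1.39. Weakly expressed genes of other tissues or subtypes had interactions of 3.76 for MYO1A, 3.60 for AGR2, 2.997 for NAPSA and 1.41 for COL1A1, and the share of reads outside genes moved with them, its part not tested.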

How the results depend on the processing

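Counts of calls moved by over 1.5 times under 3 alternatives. With only genes at a mean of 1 CPM or more, 964 genes were higher and 133 lower past 1 log2 unit on the drug. With protein-coding genes only, 177 were lower past 1. Tested against a minimum of 0.5 log2 units, 3509 genes were called on the drug, 2582 off it and 908 for the interaction. Under the other alternatives, DESeq2 included, the counts stayed within 1.5 times. With each library left out in turn, 10582 to 11850 genes were called on the drug, and 2046 to 2275 were higher and 350 to 397 lower past 1. The fit with a replicate block called 11472 genes on the drug, 9865 off it and 8206 for the interaction, and moved no count by over 1.5 times.

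Library totals as the scale raised the share of calls that were higher from 49.8% to 59.7% and upper-quartile factors to 57.6%, with the median of all genes shifted by 0.088 and 0.071. The median of the DNA replication list turned from -0.040 to 0.048, 0.031 and 0.039 with library totals, upper-quartile factors and the filter at 1 CPM, and NFKB2 turned to -0.10 with the GC and length correction, with or without the block. The causes were not tested. Of the values of named genes under all alternatives, 4074 counted as unchanged, 161 lost the call and 6 gained it. For genes not called in the main fit, a change of sign also counted as unchanged. Of the list medians, 561 moved by less than the SD of the medians of single library pairs. A further 300 moved by more, and 3 turned sign beyond that SD. The fit of only the compared groups gives no interaction. Of the 16661 genes tested, 4597 had a mean under 1 CPM, where depth limits precision, and 2 technical libraries a group leave culture-to-culture spread unmeasured.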

Other observations

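Long noncoding RNAs turned between the states. Of 2700 tested, 912 were higher and 359 lower in resistant cells on the drug, and 327 were higher and 818 lower off it. Most were weak, and among the 131 with a mean of at least 10 CPM the counts were 47 higher and 61 lower on the drug and 27 and 77 off it. Among protein-coding genes at 10 CPM or more, the median difference on the drug was -0.16 for the 1737 genes with 2 to 4 exons and -0.051 for the 1356 genes with 20 exons or more. Off the drug these medians were -0.0082 and 0.017.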
